A study of Drosophila melanogaster with 48 samples.

Results

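The nuclear genes of mitochondrial complex I were followed across the gut and fat body of adult female flies. The genes were found by a FlyBase symbol starting with ND- and a mean normalized count of at least 10 in 1 or more of 6 gene tables. This gave 34 genes out of 16185 identifiers, of which 10617 genes were present in all 6 tables and reached the same mean. The reference names held 40 such symbols, and 37 of them had a row. ND-20L, ND-49L and ND-51L2 had rows under the limit, while ND-24L, ND-MNLL and ND-B14.5AL were not analysed here. The value nearest above the limit was the highest mean of ND-B8, 10.9, and the values nearest below it were 1.54 for ND-49L and 1.49 for ND-51L2.

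The study asked what the transcription factor Xbp1 does in these organs when it is overproduced in adult life. The driver S106 is a GeneSwitch line, active in gut and fat body once flies are fed the inducer RU486. It was combined with a transgene for the spliced form (S106>Xbp1s), with a transgene for the unspliced form (S106>Xbp1U), or with no transgene (S106>Wdah, the driver alone). All flies were mated females in the outbred, Wolbachia-free Dahomey background that carries a w1118 mutation. They ate food with 200 µM RU486 (RU+) or with ethanol vehicle (RU-) for 7 days and were dissected on day 9. Each library came from 12 pooled guts or from 12 pooled fat bodies with the abdominal cuticle attached, and both tissues were taken from the same flies. The labels list 48 libraries in 12 groups of 3 to 5.

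Complex I is the largest enzyme of the respiratory chain. It takes electrons from NADH, passes them along a row of iron-sulfur clusters to ubiquinone, and pumps protons across the inner mitochondrial membrane. Its matrix arm holds the NADH-oxidising N module and the ubiquinone-reducing Q module, whose core subunits are encoded in the nucleus. The proton-pumping core of its membrane arm is encoded by the mitochondrial genome, and a large number of accessory subunits from nuclear genes surround both arms. Complex I thus depends on transcripts from both genomes. In Drosophila, several subunits have a paralog with a name ending in L, and such copies of mitochondrial genes are often expressed mainly in the testis.

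Each table held 1 mean normalized count per gene over the RU+ and RU- libraries of 1 genotype and tissue, so the level of each gene is known for 6 genotype and tissue combinations and for no separate library. There is therefore no SD, no test and no RU486 effect below, and every ratio between tables is a description. The labels give 4 RU+ and 5 RU- libraries for S106>Wdah gut, 3 and 3 for S106>Xbp1s gut, and 4 and 4 for S106>Xbp1U gut. They give 5 and 5 for S106>Wdah fat body, 4 and 4 for S106>Xbp1s fat body, and 4 and 3 for S106>Xbp1U fat body. The means summed to between 22480000 and 25130000 per table, and the 34 genes made up 0.279% to 0.340% of that sum. The tables were normalized separately, so means were rescaled to a common total of 1000000 over the 16160 genes they share (the per-million level). Values set side by side between tables are per-million levels unless they are called means or levels per length. The tissue labels fitted their markers. The 7 digestive enzyme genes summed to a per-million level of 54460 to 70490 in gut and 150.1 to 667.5 in fat body, and the 7 fat body genes to 641.2 to 1797 in gut and 62770 to 104900 in fat body. The fat body samples also held muscle transcripts (6 genes, 1488 to 2636 against 1357 to 1585 in gut) and germline transcripts (3 genes found of 4, 198.8 to 226.9 against 1.49 to 29.9).

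Of the 34 genes, 33 are main subunits and 1, ND-51L1, is a paralog. The main subunits comprised 3 core subunits of the N module, 4 core subunits of the Q module, 8 accessory subunits of the matrix arm, the acyl carrier protein, 16 accessory subunits of the membrane arm, and ND-MLRQ. The symbol ND-MLRQ follows an older assignment, since the mammalian protein of this name is now placed with cytochrome c oxidase. The genes were spread over the genome, with 9 on 2L, 8 on X, 7 on 2R, 7 on 3L, 2 on 3R and 1 on chromosome 4. They were short. The 32 main subunits other than ND-B8 had a median exonic length of 857.5 bp, against 1956 bp for all genes tested. Exonic positions were shared with another annotated gene for 17 of the 34, and 7 shared over 10%, led by ND-MWFE (34.9%, mostly with TppII) and ND-B22 (26.1%, mostly with CG31855). Reads from such positions cannot be told apart without knowing whether strand was used in counting.

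All main subunits but ND-B8 formed a narrow band of high expression. In all 6 tables, 32 of the 33 main subunits had a mean above 100, and the lowest mean among them was 711.3. ND-B8, with a highest mean of 10.9, was left out of the 32 because of its level, so the width of the band depends on that choice. Levels of different genes were compared per exonic length, as the share of each gene in the table's sum of mean over length, scaled to 1000000. On this scale, the 32 subunits lay between percentiles 85.9 and 98.1 of 10608 ranked genes, and all 32 were above the median gene in every table. Their median level per length was 127.1 in S106>Wdah gut, 137.5 in S106>Xbp1s gut and 134.9 in S106>Xbp1U gut. In fat body it was 105.6 in S106>Wdah, 136.5 in S106>Xbp1s and 122.4 in S106>Xbp1U. The highest subunit exceeded the lowest by 5.68 to 8.01 times within a table. The highest was ND-MLRQ in every table, so this span is set by the gene whose mammalian counterpart is now placed with cytochrome c oxidase. In S106>Wdah gut it was at 571.2, the next gene, ND-ACP, at 227.1 and the lowest, ND-13A, at 71.27. The 32 genes thus spanned less than a factor of 10 in each table.

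**Figure D1:**
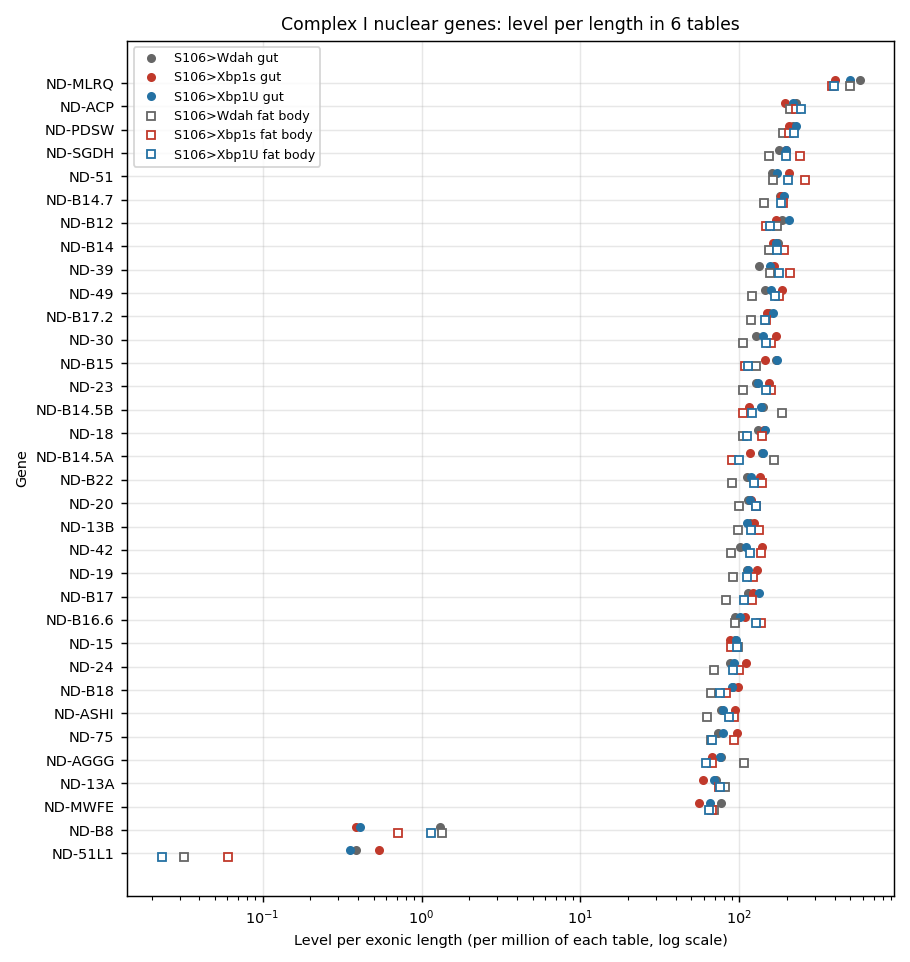
Level per exonic length (x axis, scaled to 1000000 in each table, log scale) of the 34 complex I genes (y axis), with gut as filled circles, fat body as open squares and genotype by colour; each symbol is 1 table's mean over RU+ and RU- libraries, without error bars. ND-MLRQ is at the top in all 6 tables, 31 further subunits form a band beneath it, and ND-B8 and ND-51L1 lie far to the left.

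The core subunits carry the redox centres. ND-51 binds NADH and the flavin that accepts its electrons, and it had the highest level of the core subunits in every table. Its per-million level was 201 in S106>Wdah gut, 247 in S106>Xbp1s gut, 213 in S106>Xbp1U gut, and 189.8, 263 and 217 in the corresponding fat bodies. Its partners in the N module both carry iron-sulfur clusters and were less abundant. ND-75, the largest subunit of the enzyme, had per-million levels of 152, 192 and 162 in the guts of S106>Wdah, S106>Xbp1s and S106>Xbp1U and of 128, 158 and 120.2 in their fat bodies. ND-24 had 73.0, 88.4 and 77.2 in gut and 54.1, 67.9 and 65.8 in fat body, in the same order of genotypes. Per length, ND-51 exceeded the lowest of the 3, ND-75, by 2.13 to 2.99 times, so the members of this module were not at equal transcript levels in any table.

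The 4 core subunits of the Q module were closer to each other. ND-49 and ND-30 form much of the surface where ubiquinone is reduced, and ND-20 and ND-23 hold the last iron-sulfur clusters before it. ND-49 had per-million levels of 182, 221 and 196 in the guts of S106>Wdah, S106>Xbp1s and S106>Xbp1U, and of 139, 183 and 179.6 in their fat bodies. ND-30 had 98.0, 124 and 108 in gut and 74.99, 99.6 and 97.6 in fat body. Both genes showed the same order of tables, with S106>Xbp1s gut highest and S106>Wdah fat body lowest. ND-23 had 82.0, 95.3 and 83.4 in gut and 63.2, 83.1 and 81.3 in fat body. ND-20 varied least of the 4, with 119, 119.5 and 122 in gut and 97.0, 110.2 and 114.8 in fat body. The level per length of the highest, ND-49, exceeded that of the lowest, ND-20, by 1.20 to 1.55 times.

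Among the other genes, the same 3 genes led in both tissues, in another order, and the 3 lowest were partly different. ND-MLRQ had the highest level per length in all 6 tables, 571.2, 401.4 and 494.2 in the guts of S106>Wdah, S106>Xbp1s and S106>Xbp1U and 500.8, 382.1 and 397.3 in the fat bodies. Ordered by the mean log2 level over the genotypes of a tissue, the next were ND-PDSW, a membrane-arm subunit (188.8 to 228.5), and ND-ACP, the mitochondrial acyl carrier protein (195.3 to 244.2), which also serves fatty acid synthesis in the organelle. In S106>Xbp1s alone, ND-51 was number 2 in both tissues (206.6 in gut and 257.5 in fat body). The lowest in gut were ND-MWFE (55.5 to 77.0), a membrane-arm subunit, ND-13A (59.2 to 71.3), a zinc-binding subunit at the matrix arm, and ND-AGGG (67.6 to 76.5). The lowest in fat body were ND-MWFE (64.3 to 69.7), ND-B18 (65.9 to 82.2) and ND-75 (66.5 to 93.2). The place of ND-MWFE depends on the length used, since 34.95% of its exonic positions are shared with another gene. In S106>Xbp1s gut, where it was lowest, the highest over lowest ratio was 7.23 on full exonic length. On exonic length not shared with another gene this ratio was 6.07. The ranking of the 32 subunits was alike between tables, with a Spearman rho of 0.668 to 0.984 over the 15 pairs of tables (n = 32 genes, which share each table's libraries and gene lengths). The lowest value was between the S106>Wdah and S106>Xbp1s fat bodies.

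The remaining accessory subunits of the matrix arm had similar levels to each other. ND-18, whose mammalian counterpart is needed for stable attachment of the N module, had per-million levels of 79.7, 83.2 and 86.8 in the guts of S106>Wdah, S106>Xbp1s and S106>Xbp1U and of 59.0, 68.8 and 58.2 in their fat bodies. ND-B17.2 had 88.7, 82.4 and 92.8 in gut and 63.0, 69.8 and 71.9 in fat body. For both genes every gut level was above every fat body level. ND-B14, a LYR-motif protein that docks the acyl carrier protein on the matrix arm in mammals, had 84.1, 75.1 and 81.3 in gut and 69.0, 75.5 and 71.0 in fat body. ND-13B had 54.9, 55.7 and 52.3 in gut and 42.7, 51.3 and 48.0 in fat body. The tissues overlapped for ND-B14 and did not for ND-13B. The share of all genes without such overlap was not counted, here or below. Under the wider condition of a higher gut level within each of the 3 genotypes, the share was 24.4% of all genes tested.

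In the membrane arm, ND-42, ND-SGDH and ND-PDSW had the highest per-million levels in S106>Wdah gut. ND-42 had 129, 169 and 139 in the guts of S106>Wdah, S106>Xbp1s and S106>Xbp1U and 105, 142 and 127 in their fat bodies. ND-SGDH had 124, 131 and 136 in gut and 99.6, 138 and 119 in fat body. ND-PDSW had 127, 114.6 and 132 in gut and 102, 98.1 and 109.6 in fat body. ND-42 was thus highest in S106>Xbp1s in both tissues, ND-SGDH in S106>Xbp1s fat body, and ND-PDSW was lower in each fat body than in any gut. ND-B22, the LYR-motif protein that docks the acyl carrier protein on the membrane arm in mammals, had 76.8, 88.9 and 81.0 in gut and 57.6, 77.9 and 72.9 in fat body. ND-B18 had 80.9, 83.2 and 79.8 in gut and 54.3, 59.6 and 57.4 in fat body, without overlap of the tissues. ND-15 had 84.1, 74.5 and 84.9 in gut and 80.8, 64.6 and 74.2 in fat body, higher in gut within each genotype but by little in S106>Wdah (log2 ratio 0.06). The levels of the others in this arm without values of their own here (ND-B14.7, ND-B12, ND-19 and ND-ASHI) ran from 46.6 for ND-19 in S106>Wdah fat body to 106.1 for ND-B14.7 in S106>Xbp1U gut. For all 4 every gut level was above every fat body level. Of all genes tested, 24.4% were higher in gut within each of the 3 genotypes, and the share without overlap was not counted.

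ND-B8, an accessory subunit of the matrix arm, stood apart from all other main subunits. Its mean was 10.5 in S106>Wdah gut, 3.15 in S106>Xbp1s gut, 3.45 in S106>Xbp1U gut, and 10.9, 5.24 and 8.12 in the corresponding fat bodies. This was 0.150% to 0.601% of the median mean of the other 32 subunits in the same table. The gene lies on chromosome 2L from 4454626 to 4455207 on the plus strand (BDGP6.54, the dm6 assembly), with 460 exonic bp in 3 exons, of which 15.4% overlap Gs1l. With so few reads, its ratios between tables are the least precise of any main subunit, and it met the abundance limit only in the driver-alone tables.

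The next comparison asked how the genes are distributed between gut and fat body. Main subunits had slightly higher per-million levels in gut. The median log2 ratio of gut over fat body over the 32 subunits was 0.31 in S106>Wdah, 0.23 in S106>Xbp1s and 0.21 in S106>Xbp1U. The ratio was above 0 for 27, 25 and 30 of the 32 in these genotypes. It was above 0 in all 3 genotypes for 22 of 32, against 24.4% of all genes tested. The typical gene lay on the other side. The median gene had a log2 ratio of -0.43, -0.58 and -0.68 in the same genotypes. Relative to it, the subunit medians were 0.74, 0.82 and 0.89, and 32 of 32 subunits were above the median gene in all 3 genotypes, against 41.8% of all genes. Less RNA per cell and fewer cells of a type cannot be told apart in such bulk samples, and the muscle and germline transcripts of the fat body samples were given above; their part in these ratios was not tested.

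Few members reached a large ratio without that reference. Past 1.5-fold in all 3 genotypes, 0 of the 32 main subunits were higher in gut (15.7% of all genes) and 0 were lower (39.8% of all genes). ND-51L1 was higher past that ratio, but it met the limit of 10 only through its gut means, so its direction was fixed in part by the limit. Relative to the median gene, 21 of 32 were higher past 1.5-fold in all 3 genotypes (24.1% of all genes) and 0 were lower (25% of all genes). By role, these were 2 of 3 core N, 4 of 4 core Q, 3 of 7 matrix-arm subunits other than ND-B8, 10 of 16 membrane-arm subunits, ND-ACP and ND-MLRQ. Thus members of each role were among them, and the count depended on the reference chosen.

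**Figure D2:**
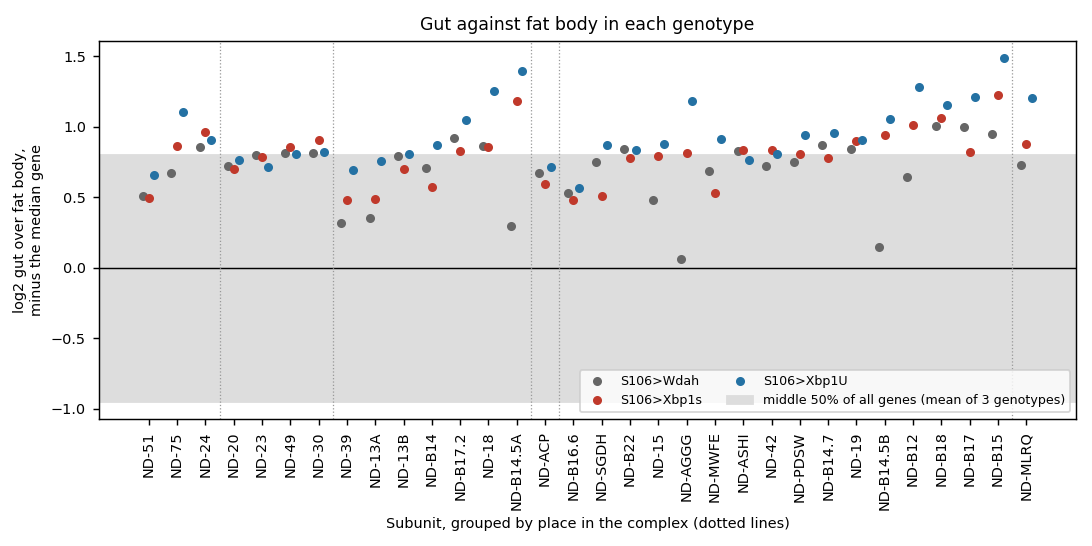
Log2 ratio of gut over fat body minus that of the median gene (y axis) for the 32 main subunits (x axis, grouped by place in the complex), with 1 point per genotype and a grey band for the middle 50% of all genes. All points lie above 0, and those of ND-B14.5A, ND-B14.5B and ND-AGGG in S106>Wdah lie lowest, well beneath the same genes in the other genotypes.

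The subunit with the largest median ratio was ND-B15, a membrane-arm subunit. Its per-million level was 64.1 in S106>Wdah gut, 52.2 in S106>Xbp1s gut and 64.3 in S106>Xbp1U gut, against 44.6, 33.4 and 36.7 in fat body. Every gut level was above every fat body level, and the log2 ratios were 0.52, 0.64 and 0.81. ND-B17, also of the membrane arm, had log2 ratios of 0.58, 0.24 and 0.53, with levels of 89.0, 90.8 and 104 in gut against 59.7, 77.1 and 71.6 in fat body. ND-B14.5A of the matrix arm was among the 3 largest by its median ratio, but its sign differed between genotypes, with -0.13 in S106>Wdah, 0.60 in S106>Xbp1s and 0.72 in S106>Xbp1U. At the other end, ND-B16.6, the fly counterpart of mammalian GRIM-19, had log2 ratios of 0.11, -0.11 and -0.12. ND-39, a nucleotide-binding accessory subunit, had -0.11, -0.10 and 0.01, and ND-13A had -0.07, -0.10 and 0.08. These 3 genes were thus near equality in every genotype, and none of them was past 1.5-fold in either direction.

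In place of replicates, the spread over the 3 genotypes shows how alike the ratios were. The SD of the median ratio over the 3 genotypes was 0.053 on the log2 scale. The highest minus the lowest log2 ratio of a subunit was 0.40 or less for 29 of the 32 subunits, and it was 0.87 for ND-AGGG, 0.85 for ND-B14.5A and 0.65 for ND-B14.5B. For these 3 genes the S106>Wdah ratio was negative and the other ratios were positive. The same S106>Wdah fat body levels enter the ratios of these genes to the driver alone below.

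Other enzymes of the respiratory chain were read the same way for context. All 4 subunits of succinate dehydrogenase (complex II) were higher in gut past 1.5-fold in all 3 genotypes, with median log2 ratios of 0.83, 0.72 and 0.77 in S106>Wdah, S106>Xbp1s and S106>Xbp1U. None of the 6 genes of complex III found, the 9 of complex IV or the 11 of ATP synthase was past that ratio. Complex I medians of 0.31, 0.23 and 0.21 fell between those of complex IV (0.48, 0.38 and 0.40) and ATP synthase (0.07, 0.02 and 0.06). Complex III medians were 0.25, 0.11 and 0.43, above complex I in S106>Xbp1U alone, so the order of the complexes differed between genotypes. The 7 complex I genes of the mitochondrial genome (mt:ND1 to mt:ND6 and mt:ND4L) were on the other side of 0, with medians of -1.07, -0.32 and -0.36 and 7 of 7 below 0 in all 3 genotypes, as were 62.1% of all genes. Relative to the median gene, 7, 5 and 0 of the 7 were above it in S106>Xbp1s, S106>Xbp1U and S106>Wdah, so the direction for the mitochondrial genes depended on the reference in the Xbp1 genotypes. The mitochondrial genes made up 0.383% to 1.33% of each table, more than all 34 nuclear genes together. These transcripts were read from libraries selected for poly(A), and how evenly that selection retains mitochondrial transcripts was not tested.

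The genotypes were then compared with the driver alone within each tissue. Each mean pools RU+ and RU- flies, and each genotype is a different cross, so an effect of the transgene cannot be told apart from differences between lines or library sets. Both ratios in a tissue also share the S106>Wdah table. Marker levels moved with genotype in the same tables. In the fat bodies of S106>Wdah, S106>Xbp1s and S106>Xbp1U, the per-million sums were 1488, 2636 and 1978 for muscle genes, 62770, 104900 and 92370 for fat body genes, and 667.5, 620.2 and 150.1 for digestive enzyme genes. In the guts, germline genes summed to 29.9, 1.49 and 4.88, fat body genes to 1797, 641.2 and 1150, and digestive enzyme genes to 54460, 70490 and 65720. Their part in the ratios of complex I genes was not tested. In gut, the median log2 ratio over the 32 subunits was 0.03 for S106>Xbp1s and 0.04 for S106>Xbp1U, and the median gene was at -0.12 and -0.16. In fat body it was 0.22 for S106>Xbp1s and 0.15 for S106>Xbp1U, and the median gene was at 0.12 and 0.15. The median subunit was above the median gene in both guts and in S106>Xbp1s fat body, and level with it in S106>Xbp1U fat body.

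In gut, 0 of the 32 main subunits were higher past 1.5-fold in S106>Xbp1s (3.29% of all genes) or in S106>Xbp1U (3.08% of all genes), and 0 were lower (24.8% and 19.3% of all genes). In fat body, 0 of 32 were higher in S106>Xbp1s (18.3% of all genes) or in S106>Xbp1U (10.1% of all genes), and 3 were lower in S106>Xbp1s (10.1% of all genes) and 3 in S106>Xbp1U (7.05% of all genes). These were ND-B14.5A, ND-B14.5B and ND-AGGG in both genotypes, and they had the lowest fat body ratios of the 32. The shares of lower subunits were near the background, so the counts say nothing particular about complex I. As above, the shares of all genes were not matched for level. ND-B8 was lower past 1.5-fold in both guts and in S106>Xbp1s fat body, from means of 10.5 to 3.15 and 3.45 and of 10.9 to 5.24, but it met the limit only through the driver-alone tables. ND-51L1 was higher in S106>Xbp1s fat body, from a mean of 1.21 to 2.07, both far under the limit.

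ND-B14.5A, an accessory subunit of the matrix arm, lies on chromosome X from 2172526 to 2173432 on the plus strand, with 807 exonic bp in 2 exons. Its fat body per-million level was 97.1 in S106>Wdah, 46.8 in S106>Xbp1s and 54.3 in S106>Xbp1U, while its gut levels were 88.5, 70.9 and 89.3. The driver-alone fat body was thus the high value and the fat bodies of both Xbp1 genotypes were beneath every gut value. The log2 ratio to the driver alone was -1.06 in S106>Xbp1s and -0.84 in S106>Xbp1U fat body, against -0.32 and 0.01 in gut.

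ND-B14.5B, an accessory subunit of the membrane arm, lies on chromosome 2L from 3144953 to 3145848 on the minus strand, with 762 exonic bp in 3 exons. Its fat body per-million level was 102 in S106>Wdah, 51.5 in S106>Xbp1s and 62.4 in S106>Xbp1U, and its gut levels were 84.6, 65.9 and 81.1. The log2 ratios to the driver alone were -0.99 and -0.72 in fat body and -0.36 and -0.06 in gut. ND-B14.5B showed the same order of tables as ND-B14.5A in fat body, with the driver alone highest.

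ND-AGGG, a small membrane-arm subunit, lies on chromosome 3L from 24976254 to 24977118 on the plus strand, with 745 exonic bp in 3 exons. Its fat body per-million level was 57.9 in S106>Wdah, 32.3 in S106>Xbp1s and 31.1 in S106>Xbp1U, and its gut levels were 45.0, 37.9 and 44.0. The log2 ratios were -0.84 and -0.90 in fat body and -0.25 and -0.03 in gut. Among the 32 subunits ordered by level per length, it was number 15 in S106>Wdah fat body and number 30 to 32 in the other 5 tables. ND-B14.5A likewise went from number 6 in S106>Wdah fat body to 27 and 24 in the fat bodies of S106>Xbp1s and S106>Xbp1U, and ND-B14.5B from number 4 to 23 and 17. In the guts of S106>Wdah, S106>Xbp1s and S106>Xbp1U the places were 13, 22 and 14 for ND-B14.5A and 12, 23 and 16 for ND-B14.5B. In the driver-alone flies all 3 genes thus had a higher place in fat body than in gut. In neither Xbp1 genotype did any of them, with ND-B14.5B at number 23 in both tissues of S106>Xbp1s. The 3 genes were picked by their low fat body ratios to the driver alone. Their places therefore restate in part the same high S106>Wdah fat body levels and are no separate observation.

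The other 29 subunits ranged from -0.57 to 0.47 in S106>Xbp1s fat body and from -0.44 to 0.38 in S106>Xbp1U fat body. ND-MLRQ was the lowest of them in both, with a per-million level of 196.5 in S106>Wdah fat body and of 132.2 and 144.6 in those of S106>Xbp1s and S106>Xbp1U. Its log2 ratio was -0.57 and -0.44 in the fat bodies and -0.58 and -0.22 in the guts of S106>Xbp1s and S106>Xbp1U. At the upper end, ND-51 had 0.47 in S106>Xbp1s and ND-30 had 0.38 in S106>Xbp1U fat body. The 4 core Q subunits were above 0 in all 4 comparisons, ND-20 by only 0.003 in S106>Xbp1s gut. Of all genes, 38.5% and 29.5% were above 0 in the guts and 60.6% and 66.6% in the fat bodies of S106>Xbp1s and S106>Xbp1U. The core Q medians were 0.25 and 0.07 in the guts and 0.40 and 0.37 in the fat bodies of S106>Xbp1s and S106>Xbp1U. With the mitochondrial ribosomal RNA mt:lrRNA left out of the totals, the median over the main subunits fell from 0.025 to -0.037 in S106>Xbp1s gut. The sign of ND-20 in that gut therefore depends on the totals. In S106>Xbp1s fat body, where ND-20 was at 0.18, the same median fell from 0.22 to 0.04. The 3 core N subunits were above 0 in all comparisons but 1, ND-75 in S106>Xbp1U fat body (-0.09).

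Longer subunits tended to have higher ratios to the driver alone, and so did longer genes over their full range of length in 3 of the 4 comparisons. Over the 32 subunits the Spearman rho between exonic length and log2 ratio was 0.64 for S106>Xbp1s gut, 0.46 for S106>Xbp1U gut, 0.55 for S106>Xbp1s fat body and 0.44 for S106>Xbp1U fat body. Over all genes tested it was 0.23, 0.13, 0.23 and -0.0043. These are correlations across genes of the same tables, which share libraries and are not replicates. All genes tested spanned 46 to 71820 bp, and the 32 subunits 477 to 2634 bp. Within the subunit range, the like-length median of all genes also rose at first in S106>Xbp1U fat body. It went from 0.01 at 493 bp to 0.30 at 1412 bp and was 0.13 at 2611 bp. The trend there is therefore not particular to complex I. The 8 longest subunits (1265 to 2634 bp) had median log2 ratios of 0.26, 0.09, 0.36 and 0.26 in these comparisons, and the 8 shortest (477 to 733 bp) had -0.14, 0.0049, 0.14 and 0.10. The longest subunits include ND-75, ND-51 and ND-49, and the shortest include ND-B15 and ND-MLRQ. Length and place in the complex therefore overlap, and their parts in the ratios were not separated.

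After subtraction of the median ratio of genes of like length, ND-B14.5A stood at -1.003 and -0.93, ND-B14.5B at -0.83 and -0.83, and ND-AGGG at -0.68 and -1.01 in the fat bodies of S106>Xbp1s and S106>Xbp1U. These genes were picked because their ratios were the lowest, so the values are a description.

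**Figure D3:**
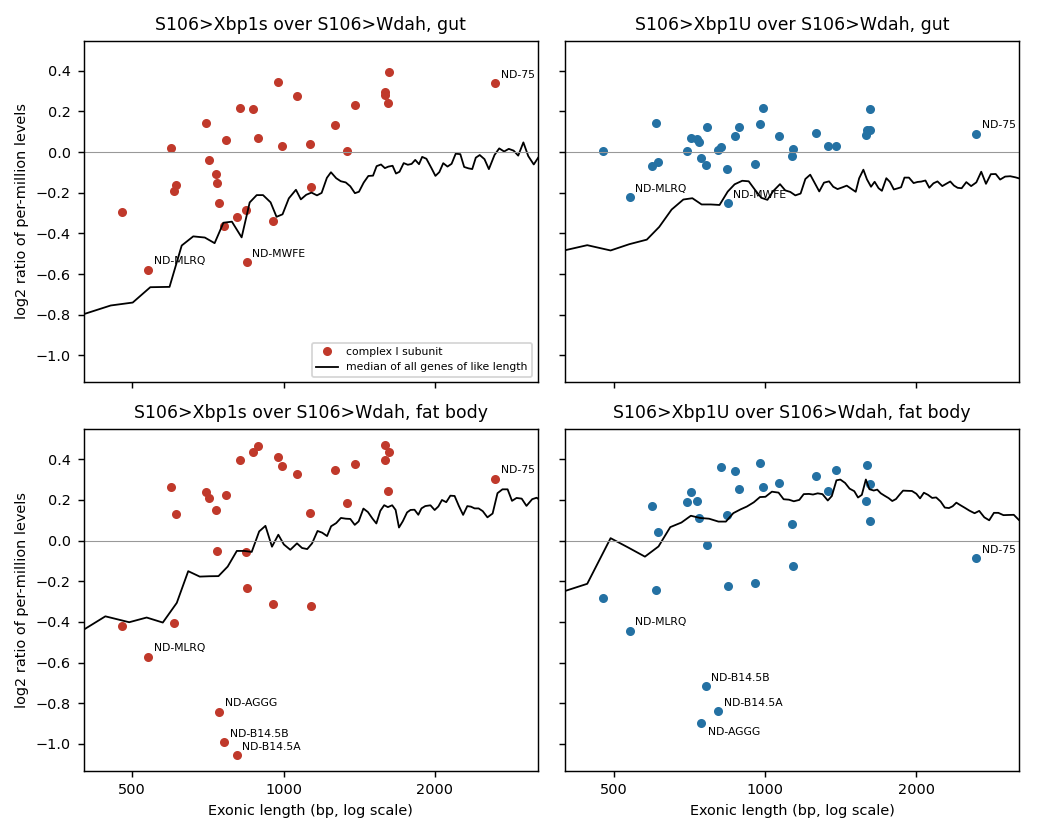
Log2 ratio of per-million levels over the driver alone (y axis) against exonic length (x axis, bp, log scale) for the 32 main subunits, in gut (top) and fat body (bottom) of S106>Xbp1s (left) and S106>Xbp1U (right); the line is the median of all genes of like length. Longer subunits tend to lie higher, and ND-B14.5A, ND-B14.5B and ND-AGGG lie far beneath the line in both fat body panels, at -0.72 or lower.

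The mitochondrial genes of complex I showed larger ratios than the nuclear ones. The median of the 7 was -1.01 for S106>Xbp1s gut, -0.40 for S106>Xbp1U gut, -1.52 for S106>Xbp1s fat body and -0.92 for S106>Xbp1U fat body. In fat body 7 of 7 were lower past 1.5-fold in both genotypes (10.1% and 7.05% of all genes). The 7 genes share the mitochondrial genome, so counts of them, here and for gut over fat body above, are not of independent genes. In gut 7 of 7 were lower in S106>Xbp1s (24.8% of all genes) and 2 of 7 in S106>Xbp1U (19.3% of all genes), the latter near the share of all genes. The nuclear medians given above (0.03, 0.04, 0.22 and 0.15) did not share this direction. The mitochondrial ribosomal RNA mt:lrRNA moved with these genes, at 9.02%, 5.05% and 6.51% of the S106>Wdah, S106>Xbp1s and S106>Xbp1U gut tables and 15.2%, 3.91% and 5.85% of the fat body tables. Its share bears on every per-million level. With mt:lrRNA left out of the totals, the median log2 ratio of the 32 nuclear subunits was -0.04 in S106>Xbp1s gut and 0.04 in S106>Xbp1s fat body.

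The paralogs were rare in both tissues. ND-51L1, the one paralog over the limit, lies on chromosome 2R from 17595267 to 17597409 on the plus strand in 1 exon of 2143 bp, inside an intron of Smurf, with no shared exonic position. Its mean was 14.6 in S106>Wdah gut, 20.4 in S106>Xbp1s gut and 13.98 in S106>Xbp1U gut, against 1.21, 2.07 and 0.773 in fat body. The per-million ratio of gut over fat body was 13.2, 10.5 and 17.6 in S106>Wdah, S106>Xbp1s and S106>Xbp1U. In these genotypes, 6.38%, 6.42% and 5.42% of all genes had a ratio at or above it. The ratio is a description, since the gene passed the limit through the gut tables alone. The fat body values amount to a few reads per library or fewer, so the size of the ratio is imprecise.

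Per length, ND-51L1 was at 0.207% to 0.262% of ND-51 in gut and 0.0116% to 0.0234% in fat body. Its host gene Smurf, an E3 ubiquitin ligase on the same strand, had means of 1115, 1227 and 1116 in gut and 1395, 1595 and 1434 in fat body. In per-million levels Smurf was at 49.9, 52.5 and 47.6 in gut and 57.6, 63.75 and 62.7 in fat body, the opposite order to the nested paralog. Other genes within 20000 bp went both ways. CG6484 had means of 15660, 23790 and 21010 in gut and 1216, 1888 and 1229 in fat body. For icln they were 145.7, 83.4 and 77.7 in gut and 525.2, 326.1 and 526.5 in fat body. A part of the locus in these levels was not tested. ND-51L2, the second copy of ND-51, had means of 0.681, 0.152 and 0.527 in gut and 1.49, 0.405 and 0.813 in fat body. ND-49L had 0.705, 0.152 and 1.54 in gut and 0.470, 0 and 0.176 in fat body. ND-20L was listed at 0 in 4 tables and had 0.0759 and 0.179 in the fat bodies of S106>Wdah and S106>Xbp1U. Each of these 3 paralogs was at or under 0.0328% of its main subunit per length in every table. The testis genes used as markers (4 found of 6) summed to a per-million level of 0.00608 to 0.108, and the highest per-million level of the same 3 paralogs was 0.0657. ND-51L1 was above the testis genes in gut, at 0.655, 0.873 and 0.596, and had 0.0498, 0.0829 and 0.0338 in fat body.

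**Figure D4:**
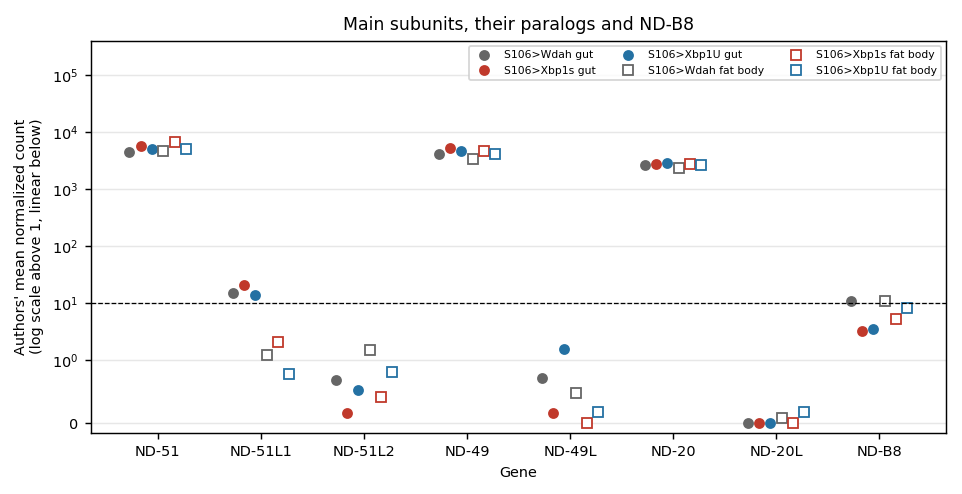
Mean normalized count (y axis, log scale above 1 and linear below) of 3 core subunits, their paralogs and ND-B8 (x axis) in the 6 tables, with gut as filled circles and fat body as open squares; the dashed line is the limit of 10. ND-51L1 is over the limit in the 3 gut tables only, ND-B8 in the 2 driver-alone tables only, and the other paralogs in none.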

How the data were processed

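Poly(A) RNA was sequenced as 150 bp read pairs. The authors aligned reads to dm6 with HISAT2, counted them with featureCounts (annotation r6.47) and analysed them with DESeq2, leaving out a few samples by clustering; use of strand was not given in the sources used here. The 6 deposited tables hold a signal per gene, the authors' mean of counts divided by size factors over the RU+ and RU- libraries of a genotype and tissue, and 6 columns of the authors' own RU+ against RU- comparison (log2 fold change, its standard error, statistic and p-values), which were not used. The depth of each library is therefore unknown, and no interval or floor can be given.

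Per-sample columns without a sample numbered 0. Means were rescaled to per-million levels over 16160 genes shared by all tables. Genes reaching a mean of 10 in 1 table were tested for a ratio past 1.5-fold; a ratio needs a mean above 0 in both tables, so 10432 to 10605 genes entered. No pseudocount was used. Exonic length, symbols and coordinates came from BDGP6.54 (Ensembl 115), in which 16152 of 16185 identifiers were found. The like-length median used 100 genes on each side. Counting was run on simulated data, in which 200 of 200 genes changed by 2-fold between gut and fat body were recovered. There were 0 false calls over 9487 genes. The simulation holds no library noise, and a 2-fold change lies past the 1.5-fold limit. Recovery was therefore given by the design, and no conclusion on the reported counts is drawn from it.

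Members, role lists and marker lists were chosen with earlier results of these data known. Named were the 7 nuclear core subunits, all paralogs, the 3 highest and 3 lowest per length in each tissue, the 3 most gut-high and 3 most fat-body-high by median ratio, and members past 1.5-fold against driver alone; ND-MLRQ's ratios and the mitochondrial genes were added after their values were seen. Alternatives were other scalings, filters, folds, lengths and a pseudocount. Protein identity and promoter motifs were not analysed here. Python 3.11.15, numpy 2.4.6, pandas 2.3.3, scipy 1.17.1 and matplotlib 3.10.9 were used.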

Additional observations from a re-analysis of the deposited data

How the results depend on the processing

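Depth per library is unknown and each table pools both RU486 groups, so no result has a replicate error. No paired analysis was possible because the tables hold no value of a separate library, and leaving out each replicate was not possible for the same reason. The planned protein identities and promoter motifs were not run. Of 135 alternative values, 101 stayed within the spread over genotypes (SD 0.0526) or, for counts and level ratios, within 1.5 times. That SD is of the median gut over fat body ratios. It was also applied to the ratios over the driver alone, whose spread it does not measure, so the count of 101 is not set against a known error.

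The gut over fat body result depended on the scaling. With median-ratio scaling, 21 members were higher in gut past 1.5-fold and the subunit median was 0.74, and relative to the median gene these were 22 and 0.82. Keeping only genes with means of 100 or more in all tables gave 0 higher, since ND-51L1 left. Without S106>Wdah, 3 were higher and 1 was lower.

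For the ratios over the driver alone, in the order S106>Xbp1s gut, S106>Xbp1U gut and then the fat bodies, the medians relative to the median gene were 0.15, 0.20, 0.10 and -0.0052. Median-ratio scaling gave 0.12 and 0.18 in the guts and 0.05 in S106>Xbp1U fat body. Subtraction of like-length genes gave 0.34 and 0.25 in the guts, with 3 members higher in S106>Xbp1s gut, and 0.024 in S106>Xbp1U fat body. Without mt:lrRNA, a setting chosen after seeing the data like that of the median gene, the median was -0.037 with 3 members lower in S106>Xbp1s gut. It was 0.036 with 0 higher for the S106>Xbp1s fat body, and -0.0033 with 5 lower for that of S106>Xbp1U. Relative to the median gene, 5 were lower in S106>Xbp1U fat body. At the lower of the planned folds, 4 were higher and 5 lower in S106>Xbp1s gut, 12 and 8 in its fat body, and 5 and 6 in that of S106>Xbp1U. With that higher minimum, 0 were lower in both guts and 0 were higher in S106>Xbp1s fat body.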
